A study of Homo sapiens with 9 samples.

Results

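The 10 genes described here encode the hypoxia-inducible factor (HIF) subunits HIF1A, EPAS1, ARNT and ARNT2, the prolyl hydroxylases EGLN1, EGLN2 and EGLN3, the ubiquitin ligase subunit VHL, the asparagine hydroxylase HIF1AN and the coactivator-binding protein CITED2. They were chosen by gene name from the 58735 genes of the deposited count table, and all 10 were found once and passed the filter on low counts that 16874 genes passed. Their RNA was measured by bulk RNA sequencing in U87, an established human glioblastoma line, in 3 groups of 3 libraries. C269S cells stably expressed isocitrate dehydrogenase 1 (IDH1) with the R132H mutation and a second change, C269S. IDH1mt cells stably expressed IDH1 with R132H alone, and PCDH cells stably expressed the empty vector. The series asked how autopalmitoylation of IDH1 R132H, the attachment of a fatty acid to the protein by itself, bears on gene expression. All 3 groups kept the line's own IDH1 gene and grew in DMEM with fetal bovine serum, penicillin and streptomycin at the same carbon dioxide level. No group expressed normal IDH1 from a vector, and the sources used here do not say whether each line was a pool or 1 clone, so effects of the construct and of the line that carried it cannot be told apart. The labels do not say that a group's 3 libraries were grown separately, so the spread behind each p-value may be technical.

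A HIF is a pair of an alpha subunit (HIF1A or EPAS1) and a beta subunit (ARNT or ARNT2). When oxygen is present, the EGLN enzymes hydroxylate prolines of the alpha subunit, using oxygen and 2-oxoglutarate, and VHL then marks the subunit for destruction. HIF1AN hydroxylates an asparagine and so keeps the alpha subunit from the coactivators CREBBP and EP300, while CITED2 competes with HIF1A for the same coactivators. EGLN1, EGLN3 and CITED2 are themselves known HIF targets, a feedback loop. IDH1 R132H is known for turning 2-oxoglutarate into 2-hydroxyglutarate. These steps act largely on protein, and neither protein, oxygen nor any metabolite was measured here.

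IDH1 RNA matched the labels in that both construct groups were far above PCDH cells. It averaged 738.7 ± 30.3 CPM (read counts scaled to library size) in C269S cells, 677 ± 16.5 CPM in IDH1mt cells and 110.6 ± 7.97 CPM in PCDH cells (SD, n = 3 each). A count per gene cannot show which construct a cell carried, so C269S and IDH1mt cells are told apart by name alone. Total counts were 19108925 to 24803711 per library. Libraries of one group differed from each other by 3.68 to 11.1 times the variance that counting alone gives, so none was a repeat deposit. The 2 highest values were those of PCDH replicate 3 against the other PCDH libraries. Of the 7 astrocyte and glioma markers, NES, SLC1A3 and OLIG2 were above 1 FPKM (read fragments per transcript length and library size) in every library, while AQP4 had no counts and GFAP did not exceed 0.356 FPKM. All 6 mesenchymal markers of glioblastoma lines were above 1 FPKM, and their summed level was 6090 to 6290 FPKM in C269S cells, 6590 to 6980 in IDH1mt cells and 5480 to 5900 in PCDH cells. None of 5 leukocyte and none of 4 epithelial markers reached 1 FPKM in all libraries, against 1 of 4 endothelial and 2 of 4 neuron markers, KDR and SNAP25 with SYP. The part of these marker levels in the results was not tested. In such bulk libraries fewer cells with a transcript and less transcript per cell cannot be told apart.

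Of the 10 genes, 4 rose and 1 fell in IDH1mt cells relative to PCDH cells. EGLN3 rose about 3-fold, EGLN1, EPAS1 and HIF1A rose by less, and CITED2 fell. Of all genes tested, 14.1% were called in that comparison (edgeR adjusted p under 0.05), 7.18% higher and 6.9% lower. In C269S cells relative to PCDH cells EPAS1 alone rose and none fell, where 1.42% of all genes were called, 0.883% higher and 0.533% lower. At an unadjusted p under 0.05, 1 member was lower in that comparison, and DESeq2 and limma-voom also called none lower. In C269S cells relative to IDH1mt cells EGLN3, EGLN1 and EPAS1 fell and none rose, where 4.9% of all genes were called, 2.29% higher and 2.61% lower. There 1 member was higher at an unadjusted p under 0.05, and DESeq2 and limma-voom called none higher. The median log2 fold change of the 10 genes was 0.11, 0.03 and -0.11 in these comparisons, in the order just given, against -0.0077, -0.0084 and 0.0004 over all genes tested. The ranges of the 2 groups did not overlap for 6, 2 and 5 of the 10 genes, against 29.2%, 15.2% and 23.6% of all genes.

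**Figure D1:**
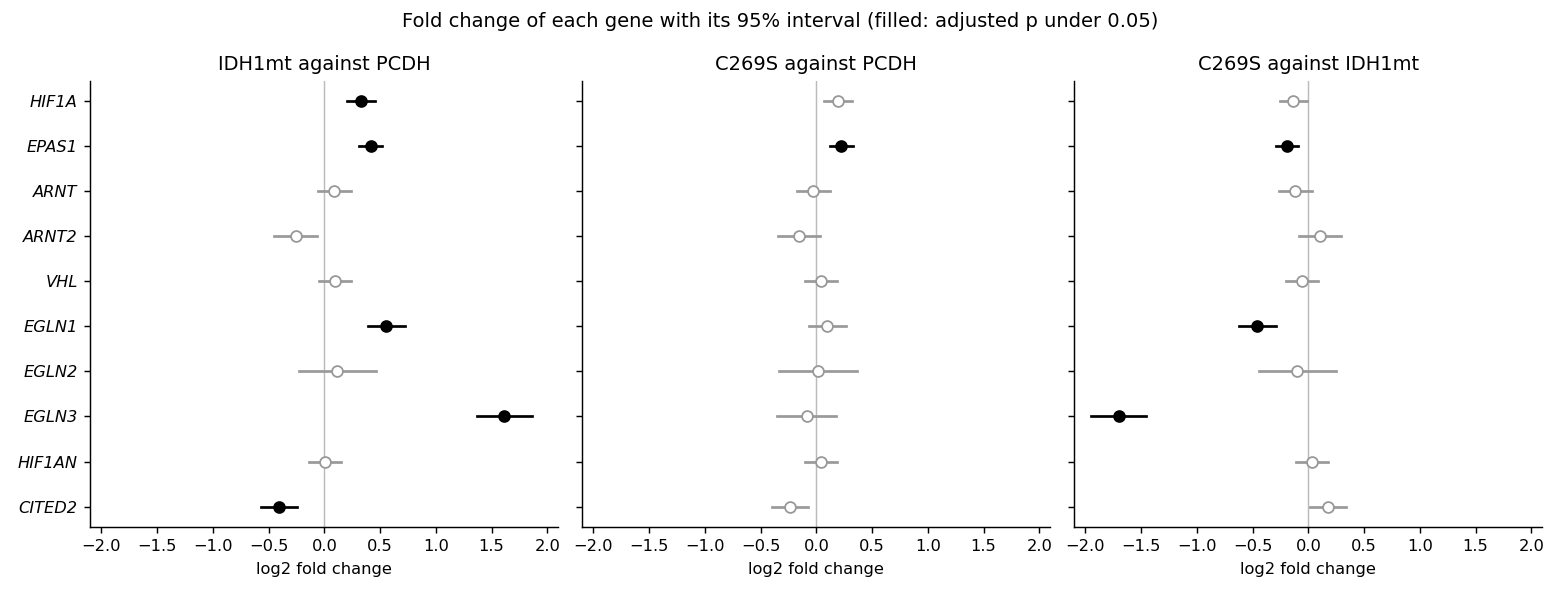
Log2 fold changes of the 10 genes (horizontal axis) in the 3 comparisons, with 95% confidence intervals from edgeR's fit; filled points passed an adjusted p under 0.05. EGLN3 stands apart at 1.62 in IDH1mt against PCDH cells and at -1.70 in C269S against IDH1mt cells, while ARNT, ARNT2, EGLN2, VHL and HIF1AN passed in none of the 3.

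The genes differed widely in level. On the length-corrected FPKM scale HIF1A was highest, with a mean of 181.8 FPKM over the 9 libraries (145.9 to 202.5), followed by EPAS1 with 78.5 FPKM (65.0 to 92.9). CITED2 (16.5 FPKM) and VHL (15.8 FPKM) did not separate, since CITED2 was above VHL in 5 of 9 libraries. ARNT followed with 10.6 FPKM and EGLN1 with 7.99 FPKM, and their ranges over all libraries overlapped although ARNT was above EGLN1 within each of the 9 libraries. HIF1AN averaged 5.14 FPKM. ARNT2 (3.39 FPKM) and EGLN3 (2.52 FPKM) changed places between groups, with ARNT2 above in the 6 C269S and PCDH libraries and EGLN3 above in the 3 IDH1mt libraries. EGLN2 was lowest, with 0.932 FPKM (0.790 to 1.10). That level and its rank are uncertain, since most EGLN2 coding bases lie also in exons of other genes.

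**Figure D2:**
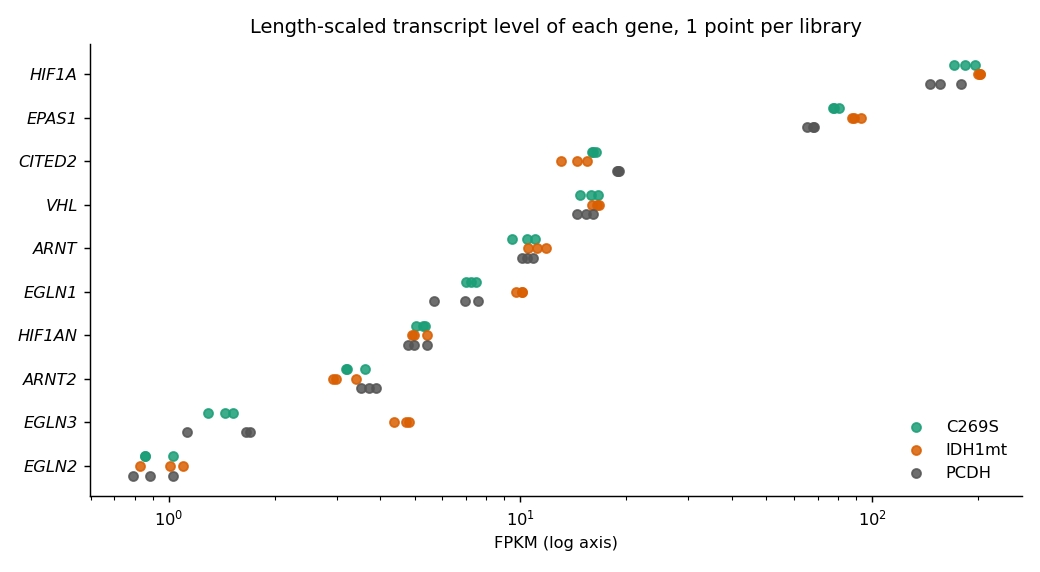
Deposited FPKM of each of the 10 genes (log axis) in C269S, IDH1mt and PCDH cells, each point being a library. HIF1A sits highest at 145.9 to 202.5 FPKM and EGLN2 lowest at 0.790 to 1.10 FPKM, an uncertain level because of shared exons. EGLN3 is the gene whose IDH1mt points leave the other groups by the widest step.

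EGLN3 and EGLN1 held the widest differences of the 10 genes in both comparisons that involve IDH1mt cells, while EGLN2, their paralog, passed in no comparison. EGLN3 (ENSG00000129521, GRCh38 chromosome 14, 33924231 to 34462774, minus strand), which hydroxylates HIF alpha subunits and is known as strongly induced by hypoxia, had 11.3, 10.7 and 9.60 CPM in C269S cells. It had 35.6, 32.2 and 34.9 CPM in IDH1mt cells and 8.41, 12.6 and 12.3 CPM in PCDH cells. All 3 IDH1mt libraries were far above all others, and the C269S and PCDH libraries overlapped. EGLN3 rose 3.06-fold in IDH1mt relative to PCDH cells (log2 fold change 1.62, 95% interval 1.37 to 1.86, edgeR adjusted p = 1.09e-11). It was 3.26-fold lower in C269S than in IDH1mt cells (log2 fold change -1.70, interval -1.95 to -1.46, edgeR adjusted p = 1.27e-11). By the size of the change it ranked 141 and 57 of 16874 genes in these comparisons. C269S and PCDH cells did not differ beyond the spread (log2 fold change -0.09, interval -0.35 to 0.18, edgeR adjusted p = 0.852). Without PCDH replicate 3 the changes relative to PCDH cells were 1.69 in IDH1mt and -0.01 in C269S cells. Without PCDH replicate 1, the lowest of its group, the change in IDH1mt cells was 1.45. With any 1 of the 9 libraries left out the changes were 1.45 to 1.72 in IDH1mt and -0.249 to 0.014 in C269S cells. The span of EGLN3 contains SPTSSA on the same strand, but the 2 genes share no exon base.

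EGLN1 (ENSG00000135766, chromosome 1, 231363751 to 231425044, minus strand), the main oxygen-sensing prolyl hydroxylase in most cells, had 54.8, 52.8 and 51.3 CPM in C269S cells. The values were 73.7, 70.8 and 74.0 CPM in IDH1mt cells and 41.9, 50.9 and 55.5 CPM in PCDH cells. As with EGLN3, the IDH1mt libraries lay above the other 6, and the C269S values fell inside the PCDH range. EGLN1 rose 1.47-fold in IDH1mt relative to PCDH cells (log2 fold change 0.56, SE 0.0812, edgeR adjusted p = 7.86e-06). It was 1.38-fold lower in C269S than in IDH1mt cells (-0.46, SE 0.0812, edgeR adjusted p = 0.000325). The difference between C269S and PCDH cells was 0.10 (interval -0.07 to 0.27, edgeR adjusted p = 0.704), and 0.19 without PCDH replicate 3 (edgeR adjusted p = 0.17). Without PCDH replicate 1, the lowest of its group, it was -0.0067. In the fit without that library EGLN1 was higher in IDH1mt than in PCDH cells by 0.45.

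EGLN2 (ENSG00000269858, chromosome 19, 40798996 to 40808433, plus strand), the third HIF prolyl hydroxylase, had 5.67, 5.67 and 6.80 CPM in C269S cells, 7.28, 6.67 and 5.47 CPM in IDH1mt cells and 5.90, 6.83 and 5.23 CPM in PCDH cells. The 3 groups overlapped throughout, and no comparison passed (log2 fold changes 0.12, 0.01 and -0.10, edgeR adjusted p = 0.718, 0.985 and 0.832, for IDH1mt against PCDH, C269S against PCDH and C269S against IDH1mt). Its level is uncertain. In GENCODE release 29, 1221 of its 1307 coding bases (93.4%) lie also in exons of RAB4B-EGLN2 and AC008537.1 on the same strand. Both of those genes had no counts in any of the 9 libraries. Reads in the shared exons were therefore not credited to those genes. The sources used here do not say whether such reads were given to EGLN2 or dropped. If they were dropped, the EGLN2 level given here is too low.

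The bases before the EGLN1 and EGLN3 start sites are shown because these 2 genes moved together while only 1 of them carries the core of a hypoxia response element, ACGTG or GCGTG, in this window. The sequences are from RefSeq on GRCh38.p14 and run 5′ to 3′ on the gene's strand, ending 1 base before the start site, with a match to the core in capitals.
EGLN1 chr1:231422288-231422537 (-): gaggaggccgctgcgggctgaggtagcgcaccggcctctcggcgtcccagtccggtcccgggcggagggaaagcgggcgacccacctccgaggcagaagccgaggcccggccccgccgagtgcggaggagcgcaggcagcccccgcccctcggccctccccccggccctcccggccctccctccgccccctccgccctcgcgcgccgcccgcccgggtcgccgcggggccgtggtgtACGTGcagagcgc
EGLN3 chr14:33951075-33951324 (-): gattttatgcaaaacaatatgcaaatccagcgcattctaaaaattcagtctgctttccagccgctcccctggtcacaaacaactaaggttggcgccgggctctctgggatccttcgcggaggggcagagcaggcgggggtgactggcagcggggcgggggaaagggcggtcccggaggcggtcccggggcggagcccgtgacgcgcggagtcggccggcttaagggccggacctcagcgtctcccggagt

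In EGLN1 the match begins 13 bases before the start site. The RefSeq start sites of EGLN1 and EGLN3 both lie inside the longer spans of the count table. The EGLN3 window had no match on either strand. Promoter windows of 250 bases before and 50 after a start site were found for 8 of the 10 genes, giving 12 windows, of which 7, from 5 genes, held a match. Over all 35116 such windows 48.4% held at least 1 of the 2 motifs on either strand, 21.4% ACGTG and 36.5% GCGTG, so a match is common. CITED2 and EGLN2 each had an ACGTG on both strands that overlapped as a palindrome, while EPAS1 and HIF1A had GCGTG. The other 2 windows of CITED2 also held GCGTG. The next stretches show 1 match for each of these 4 genes in capitals, to be set beside the one in EGLN1.
HIF1A chromosome 14 (+): gctgagagcgGCGTGggctggggtg
EPAS1 chromosome 2 (+): gcctgccggcGCGTGcccgcccaca
EGLN2 chromosome 19 (+): ggggcgcggtCACGTGcccaccggg
CITED2 chromosome 6 (-): gcctctgcagCACGTGccgcgggcg

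**Figure D3:**
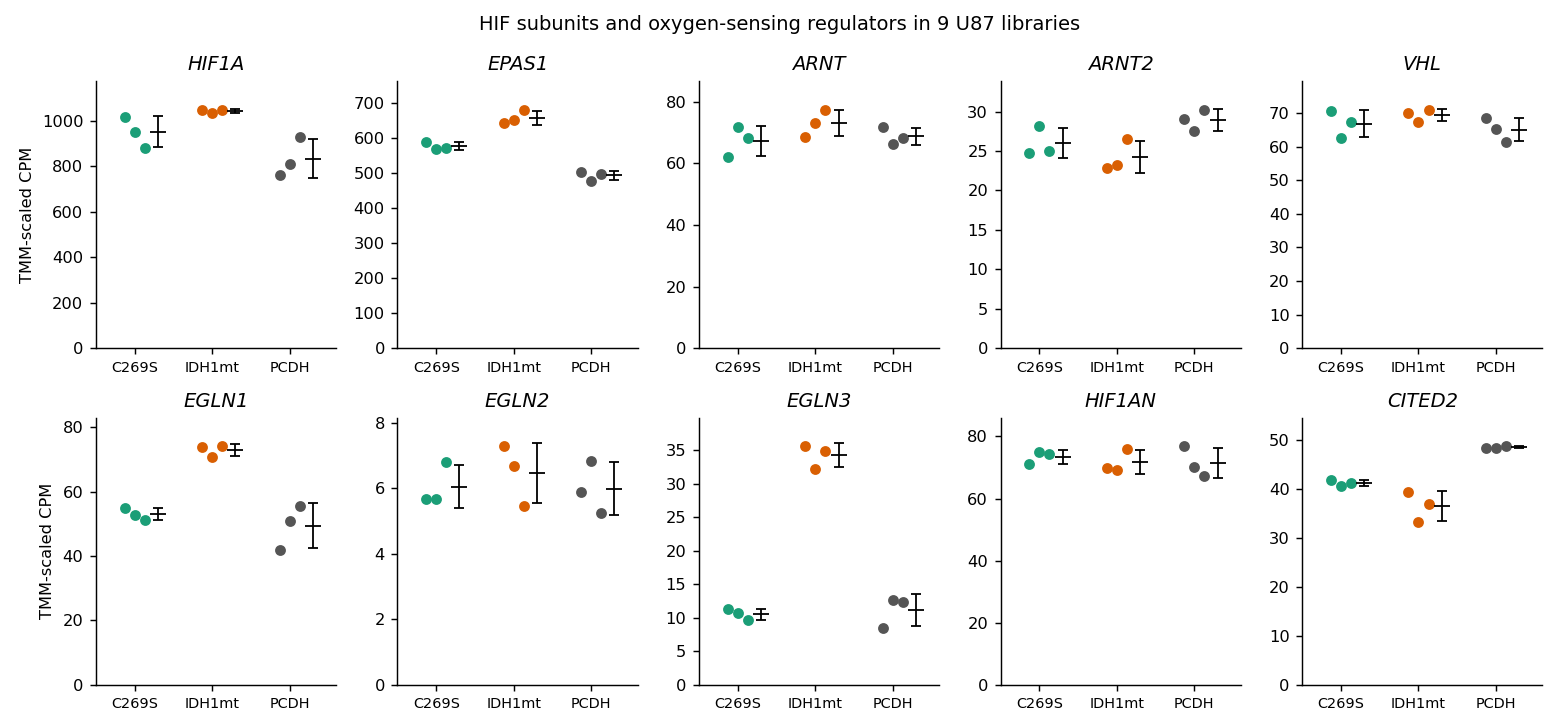
Normalised CPM of each of the 10 genes in each library, 1 panel per gene with its own axis from 0, in C269S, IDH1mt and PCDH cells; bars give mean ± SD of 3. EGLN3 and EGLN1 are highest in all 3 IDH1mt libraries, at 32.2 to 35.6 and 70.8 to 74.0 CPM, and CITED2 is highest in all 3 PCDH libraries, at 48.3 to 48.7 CPM.

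The unequal rise of the 2 genes shifted the make-up of the prolyl hydroxylase RNA. The FPKM of EGLN3 was 18.5% to 20.3% of that of EGLN1 in C269S cells, 45.0% to 47.7% in IDH1mt cells and 19.8% to 24.5% in PCDH cells. The IDH1mt libraries were apart from both other groups, which overlapped each other. The mean log2 ratio was -2.35 ± 0.07 in C269S cells, -1.11 ± 0.04 in IDH1mt cells and -2.18 ± 0.15 in PCDH cells (SD, n = 3 each). It differed by 1.08 between IDH1mt and PCDH cells and by -1.25 between C269S and IDH1mt cells (exact two-sided permutation p = 0.1 each, the smallest that 3 against 3 allows; 0.18 when adjusted over the 9 ratio tests). For C269S against PCDH cells the difference was -0.17 (exact permutation p = 0.3, adjusted 0.386). The summed FPKM of the 3 EGLN genes was 9.58 ± 0.269 in C269S cells, 15.6 ± 0.472 in IDH1mt cells and 9.14 ± 1.25 in PCDH cells. Of that sum EGLN3 made up 14.8 ± 0.819% in C269S, 29.7 ± 0.667% in IDH1mt and 16.3 ± 1.51% in PCDH cells. EGLN1 made up the largest share in all 9 libraries, 63.0% to 64.6% of it in IDH1mt cells. The uncertain EGLN2 level enters these sums and shares, but not the ratio of EGLN3 to EGLN1.

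Both alpha subunits rose in IDH1mt cells, by less than the hydroxylases EGLN3 and EGLN1. HIF1A (ENSG00000100644, chromosome 14, 61695513 to 61748259, plus strand), the subunit found in nearly all cell types, had 1019, 953 and 882 CPM in C269S cells. It had 1047, 1035 and 1049 CPM in IDH1mt cells and 761, 809 and 928 CPM in PCDH cells. The IDH1mt libraries were close to each other and above all others, while the spread of C269S and PCDH libraries was wider and they overlapped. HIF1A rose 1.25-fold in IDH1mt relative to PCDH cells (log2 fold change 0.33, SE 0.0607, edgeR adjusted p = 0.000306). In C269S relative to PCDH cells the log2 fold change was 0.19 (interval 0.07 to 0.32, edgeR adjusted p = 0.127). That call turned on single libraries, since it passed without PCDH replicate 3 (0.28, edgeR adjusted p = 0.000524) and without C269S replicate 3 (edgeR adjusted p = 0.0361). C269S cells lay below IDH1mt cells in every library, but the difference did not pass (-0.13, interval -0.26 to -0.01, edgeR adjusted p = 0.255). A share of 2.9% of the HIF1A exon bases lies in the exons of AL137129.1 on the same strand, a gene with at most 2 counts in a library.

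EPAS1 (ENSG00000116016, chromosome 2, 46293667 to 46386703, plus strand), which encodes the alpha subunit also called HIF-2 alpha, had 590.3, 568 and 573 CPM in C269S cells, 645, 652 and 682 CPM in IDH1mt cells and 505, 479 and 498 CPM in PCDH cells. The 3 groups did not overlap, with C269S cells between the others. It was the only member called in all 3 comparisons. Relative to PCDH cells EPAS1 was 1.34-fold higher in IDH1mt cells (0.42 on the log2 scale, SE 0.0501, edgeR adjusted p = 2.9e-07) and 1.17-fold higher in C269S cells (0.22, SE 0.0501, edgeR adjusted p = 0.0136). C269S cells were 1.14-fold below IDH1mt cells (-0.19, SE 0.05, edgeR adjusted p = 0.0189). The calls that involve C269S cells were close to the threshold. The one against PCDH cells was lost without C269S replicate 1, C269S replicate 2 or PCDH replicate 2 (edgeR adjusted p = 0.108, 0.0513 and 0.0842). The one against IDH1mt cells was lost without C269S replicate 2 (edgeR adjusted p = 0.101) or without IDH1mt replicate 1, 2 or 3 (edgeR adjusted p = 0.0558, 0.0579 and 0.15). The FPKM of EPAS1 was 40.9% to 45.8% of that of HIF1A in C269S, 43.5% to 45.9% in IDH1mt and 37.9% to 46.8% in PCDH cells, so the groups overlapped (exact permutation p = 0.9 for C269S against PCDH, 0.5 for IDH1mt against PCDH and 0.3 for C269S against IDH1mt).

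The beta subunits passed the test in no comparison. ARNT (ENSG00000143437, chromosome 1, 150809705 to 150876768, minus strand), the beta subunit of most cells, had 62.2, 71.8 and 68.3 CPM in C269S, 68.8, 73.2 and 77.5 CPM in IDH1mt and 71.8, 66.2 and 68.4 CPM in PCDH cells. The groups overlapped, with log2 fold changes of 0.09 in IDH1mt and -0.03 in C269S cells relative to PCDH cells and -0.12 in C269S relative to IDH1mt cells (edgeR adjusted p = 0.476, 0.926 and 0.457). ARNT2 (ENSG00000172379, chromosome 15, 80404350 to 80597937, plus strand), its paralog with high expression in brain, had 24.8, 28.2 and 25.0 CPM in C269S, 22.9, 23.3 and 26.6 CPM in IDH1mt and 29.1, 27.5 and 30.3 CPM in PCDH cells. Every IDH1mt library was below every PCDH library, but the difference did not pass (log2 fold change -0.26, interval -0.45 to -0.07, edgeR adjusted p = 0.062). It passed without IDH1mt replicate 3 (-0.33, edgeR adjusted p = 0.0446). C269S cells were between them, at -0.15 relative to PCDH and 0.10 relative to IDH1mt cells (edgeR adjusted p = 0.539 and 0.648).

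The ratio of the beta subunits separated the groups more than either gene alone. The FPKM of ARNT2 was 30.9% to 33.6% of that of ARNT in C269S cells, 26.8% to 28.9% in IDH1mt cells and 34.1% to 37.2% in PCDH cells, and no pair of groups overlapped. The mean log2 ratio was -1.62 ± 0.06 in C269S, -1.84 ± 0.06 in IDH1mt and -1.50 ± 0.07 in PCDH cells (SD, n = 3 each). The differences were -0.35 for IDH1mt against PCDH, -0.12 for C269S against PCDH and 0.22 for C269S against IDH1mt (exact two-sided permutation p = 0.1 each, the smallest possible, and 0.18 adjusted over the 9 ratio tests). A ratio shows unequal levels of the 2 genes and not which of them moved.

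**Figure D4:**
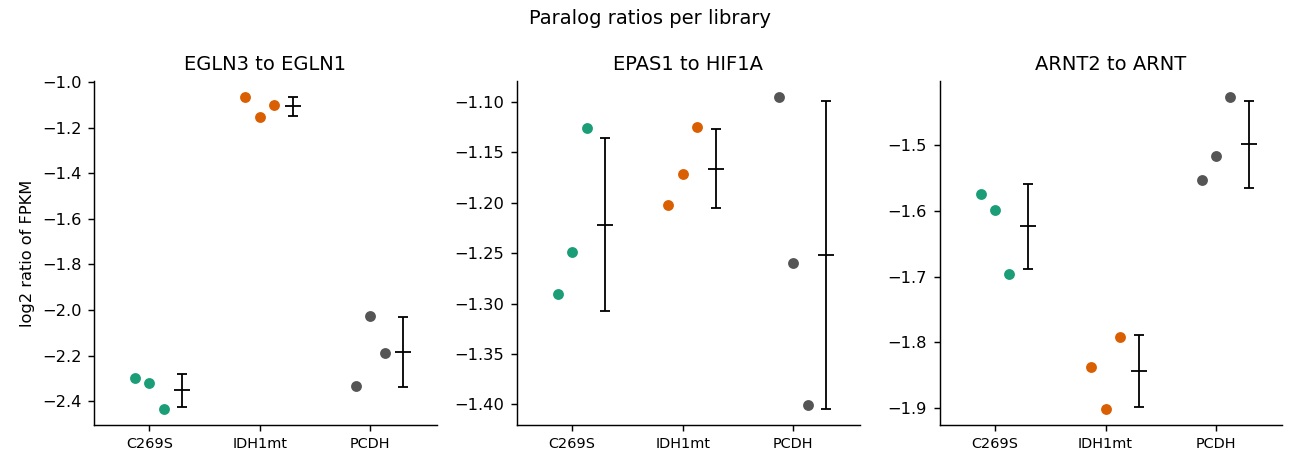
Log2 ratio of FPKM per library for EGLN3 to EGLN1, EPAS1 to HIF1A and ARNT2 to ARNT, in C269S, IDH1mt and PCDH cells; bars give mean ± SD of 3. EGLN3 to EGLN1 averages -1.11 in IDH1mt cells against -2.35 in C269S and -2.18 in PCDH cells, EPAS1 to HIF1A overlaps between groups, and ARNT2 to ARNT falls in 3 separate ranges.

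VHL (ENSG00000134086, chromosome 3, 10141008 to 10152220, plus strand), which recognises the hydroxylated alpha subunit, did not differ between the groups beyond the spread. It had 70.6, 62.7 and 67.2 CPM in C269S, 69.9, 67.4 and 71.0 CPM in IDH1mt and 68.4, 65.2 and 61.5 CPM in PCDH cells, which overlap. The log2 fold changes were 0.09 (interval -0.05 to 0.24) in IDH1mt and 0.04 (interval -0.10 to 0.18) in C269S relative to PCDH cells, with edgeR adjusted p = 0.428 and 0.885. C269S and IDH1mt cells differed by -0.05 (interval -0.20 to 0.09, edgeR adjusted p = 0.776). These intervals leave room for changes of up to about 0.24 on the log2 scale.

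Among 19 partners of VHL in its ligase, scaffolds and factors that set HIF stability, 2 rose, 2 fell and 15 did not pass in IDH1mt relative to PCDH cells. The 4 calls of 19 stand beside 14.1% of all genes called, so the share is near the background. Their median log2 fold change was -0.05, against -0.0077 over all genes, and 0.02 without PCDH replicate 3. FKBP8, which binds EGLN1 and was named after its value was seen, passed in that fit (-0.16, edgeR adjusted p = 0.0327, against -0.12 and 0.16 with all libraries). LIMD1, a scaffold that binds EGLN enzymes and VHL, averaged 99.0 ± 4.88 CPM in C269S, 124.9 ± 2.78 CPM in IDH1mt and 90.3 ± 5.98 CPM in PCDH cells (SD, n = 3 each). It rose in IDH1mt relative to PCDH cells (log2 fold change 0.47, edgeR adjusted p = 3.48e-06). It was also the 1 gene of the list called in C269S relative to IDH1mt cells, where it fell (-0.33, edgeR adjusted p = 0.00103). Of all genes tested, 4.9% were called in that comparison, so 1 of 19 is near the background. LIMD1 kept both calls without any 1 of the 9 libraries. CUL2, the cullin of the VHL ligase, rose by 0.25, USP20, a deubiquitinase of HIF1A, changed by -0.26, and OS9, a HIF1A- and EGLN-binding protein, changed by -0.22 (edgeR adjusted p = 0.017, 0.0159 and 0.019). These 3 calls were less stable, since CUL2 and OS9 passed in 5 and USP20 in 4 of 9 fits that left out a library. All were lost without IDH1mt replicate 1, PCDH replicate 1 or PCDH replicate 2, CUL2 and USP20 also without IDH1mt replicate 2, and OS9 and USP20 also without IDH1mt replicate 3. In C269S relative to PCDH cells, where 1.42% of all genes were called, none of the 19 passed with edgeR, DESeq2 or limma-voom. Of the 19, 3 had an unadjusted edgeR p under 0.05. Without PCDH replicate 3, 1 of them passed, FKBP8 (-0.18, edgeR adjusted p = 0.0335, against -0.14 and 0.234 with all libraries). USP20 was higher in C269S than in IDH1mt cells by 0.24 (edgeR adjusted p = 0.0509), and it passed with DESeq2, without PCDH replicate 3 and without C269S replicate 2. The list median in C269S relative to PCDH cells was -0.06, and -0.04 in C269S relative to IDH1mt cells.

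HIF1AN (ENSG00000166135, chromosome 10, 100529072 to 100559998, plus strand), also called FIH, passed in no comparison. It had 70.9, 75.0 and 74.3 CPM in C269S, 70.0, 69.1 and 76.1 CPM in IDH1mt and 76.8, 70.3 and 67.2 CPM in PCDH cells. All groups overlapped, and the log2 fold changes were 0.0048 in IDH1mt and 0.04 in C269S relative to PCDH cells and 0.04 in C269S relative to IDH1mt cells (edgeR adjusted p = 0.974, 0.88 and 0.863). The intervals were -0.14 to 0.15 for IDH1mt against PCDH, -0.10 to 0.18 for C269S against PCDH and -0.11 to 0.18 for C269S against IDH1mt. A share of 2.3% of its exon bases is opposite to NDUFB8 and AL133352.1, and whether the counting used strand is not stated in the sources used here.

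CITED2 (ENSG00000164442, chromosome 6, 139371807 to 139374620, minus strand) had 41.8, 40.6 and 41.1 CPM in C269S cells, 39.3, 33.3 and 36.8 CPM in IDH1mt cells and 48.3, 48.3 and 48.7 CPM in PCDH cells. The 3 groups did not overlap, with PCDH highest, C269S between and IDH1mt lowest. CITED2 fell 1.33-fold in IDH1mt relative to PCDH cells (log2 fold change -0.41, SE 0.0786, edgeR adjusted p = 0.00039). It was the only member called lower there, and it kept that call without any 1 library. C269S cells were lower than PCDH cells in every library, without passing (-0.23, interval -0.39 to -0.07, edgeR adjusted p = 0.154), and higher than IDH1mt cells in every library, also without passing (0.17, interval 0.01 to 0.34, edgeR adjusted p = 0.255).

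CREBBP and EP300, the acetyltransferases for which CITED2 and HIF1A compete, did not pass in any comparison, nor did the other 5 tested genes of a list of 9 coactivators and CITED2 relatives (KAT5, CDK8, NCOA1, NCOA2 and NCOA3). CITED1 and CITED4 did not pass the filter on low counts. With edgeR, DESeq2 and limma-voom 0 of 7 were called in each comparison. Of all genes tested, 14.1% were called in IDH1mt and 1.42% in C269S relative to PCDH cells. The share was 4.9% in C269S relative to IDH1mt cells, so no call among 7 genes is near the background. At an unadjusted p under 0.05, 1 of the 7 was higher in IDH1mt and 1 in C269S relative to PCDH cells, and none passed that level between C269S and IDH1mt cells. Without PCDH replicate 3, 1 of the 7 was called higher relative to PCDH cells in both groups. It was CDK8, a Mediator kinase named after its value was seen, at 0.41 in IDH1mt and 0.39 in C269S cells (edgeR adjusted p = 0.0119 and 0.0432, against 0.0776 and 0.277 with all libraries). For CREBBP the log2 fold changes were 0.01 in IDH1mt and -0.0045 in C269S relative to PCDH cells, and for EP300 0.14 and 0.05. The list medians were 0.10 (0.04 to 0.14 with a library left out) and 0.06 in these comparisons and -0.02 in C269S relative to IDH1mt cells.

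ARNT and HIF subunits belong to the bHLH-PAS family, DNA-binding proteins that work in pairs. Of 12 other members 10 were tested (NPAS3 and NPAS4 were not). In IDH1mt relative to PCDH cells, where 7.18% of all genes were called higher and 6.9% lower, 3 of these fell and none rose. The list median was -0.14. Without PCDH replicate 1 a further gene was lower, ARNTL2, named after its value was seen (-0.27 in that fit, edgeR adjusted p = 0.0288, against -0.20 and 0.0684 with all libraries). AHR, the receptor for dioxin and related ligands, which also pairs with ARNT, averaged 58.6 ± 6.36 CPM in C269S, 45.2 ± 2.13 CPM in IDH1mt and 66.2 ± 6.24 CPM in PCDH cells (SD, n = 3 each). Its log2 fold change in IDH1mt relative to PCDH cells was -0.55 (edgeR adjusted p = 1.3e-05). AHRR, the AHR repressor and a known AHR target, averaged 44.4 ± 0.71 CPM in C269S, 34.6 ± 2.90 CPM in IDH1mt and 47.5 ± 1.30 CPM in PCDH cells, a log2 fold change of -0.46 in IDH1mt relative to PCDH cells (edgeR adjusted p = 0.000109). SIM1 was the third (-0.59, edgeR adjusted p = 0.0332), and it lost its call without PCDH replicate 3 or without any 1 of the 3 IDH1mt libraries.

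C269S cells had more AHR (0.37, edgeR adjusted p = 0.00503) and AHRR (0.36, edgeR adjusted p = 0.00486) than IDH1mt cells. These were the 2 of 10 called there, both higher, and the list median was 0.17. Of all genes tested, 4.9% were called in that comparison, 2.29% higher and 2.61% lower. AHR lost that call without C269S replicate 1 or IDH1mt replicate 2, and AHRR without IDH1mt replicate 1. With edgeR, DESeq2 and limma-voom none of the 10 was called in C269S relative to PCDH cells, and 1 was lower at an unadjusted p under 0.05, with a list median of -0.07. Of the AHR exon bases 29.4% lie in exons of AC019117.2 or AC073332.1 on the same strand, so its count is uncertain.

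Of 8 other enzymes that use oxygen and are discussed as oxygen sensors, KDM4B and JMJD6 rose and P4HTM fell in IDH1mt relative to PCDH cells. The list median was 0.04. Over all genes tested 14.1% were called there, 7.18% higher and 6.9% lower. KDM4B, a histone demethylase and a known HIF target, averaged 56.1 ± 0.788 CPM in C269S, 76.7 ± 7.09 CPM in IDH1mt and 59.2 ± 2.39 CPM in PCDH cells (SD, n = 3 each). It rose in IDH1mt relative to PCDH cells (log2 fold change 0.37, edgeR adjusted p = 0.000448) and was lower in C269S than in IDH1mt cells (-0.45, edgeR adjusted p = 0.000105). JMJD6, a lysyl hydroxylase, rose by 0.28 in IDH1mt relative to PCDH cells (edgeR adjusted p = 0.00578), a call lost without IDH1mt replicate 3. It was lower in C269S than in IDH1mt cells (-0.24, edgeR adjusted p = 0.0444), but this call passed in 4 of 9 fits that left out a library.

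P4HTM, a prolyl hydroxylase of the endoplasmic reticulum, followed another course. It averaged 51.7 ± 5.14 CPM in C269S, 50.7 ± 1.27 CPM in IDH1mt and 63.9 ± 3.70 CPM in PCDH cells. It fell in IDH1mt (log2 fold change -0.33, edgeR adjusted p = 0.003) and in C269S cells (-0.31, edgeR adjusted p = 0.0366) relative to PCDH cells, and was the 1 gene of the 8 called in the comparison of C269S with PCDH cells. That call passed only without C269S replicate 3 or PCDH replicate 3 among the 9 fits that left out a library. Of all genes tested, 1.42% were called in that comparison. The list medians were -0.02 in C269S relative to PCDH cells and -0.01 relative to IDH1mt cells.

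Genes that HIFs are known to switch on gave a larger contrast than the regulators, in a list chosen with earlier results of these data known. The list held 24 such genes outside the 10. In IDH1mt relative to PCDH cells, where 7.18% of all genes were called higher and 6.9% lower, 20 rose and 2 fell. Their median log2 fold change was 0.63, against -0.0077 over all genes tested. The 2 that fell were CA9, a carbonic anhydrase (-0.22, edgeR adjusted p = 0.0195), and LOX, a collagen cross-linking enzyme (-0.36, edgeR adjusted p = 3.38e-05). CA9 lost that call without IDH1mt replicate 2 or 3 or PCDH replicate 1 or 2, so with a library left out 1 to 2 fell. With a library left out 19 to 20 rose. The calls lost were those of ANKRD37 and PGK1, named after their values were seen, which passed in 5 and 7 of 9 such fits. In C269S relative to PCDH cells, where 0.883% of all genes were called higher and 0.533% lower, 4 of the 24 rose and 3 fell. The median was -0.01, against -0.0084 over all genes tested. In C269S relative to IDH1mt cells, where 2.29% of all genes were called higher and 2.61% lower, 21 of the 24 fell and none rose. With a library left out 18 to 22 fell. The median with all libraries was -0.56, against 0.0004 over all genes tested. None was higher there with DESeq2, limma-voom or an unadjusted p under 0.05 either. Without PCDH replicate 1 the counts in C269S relative to PCDH cells were 2 higher and 2 lower, and without PCDH replicate 3 they were 5 and 4. EGLN3 is itself such a target, and so are EGLN1 and CITED2, but CITED2 went the other way. The glucose transporter gene SLC2A1, for one, averaged 116.2 ± 11.0 CPM in C269S, 357 ± 12.7 CPM in IDH1mt and 95.8 ± 4.22 CPM in PCDH cells (SD, n = 3 each). Its log2 fold change was 1.90 in IDH1mt relative to PCDH and -1.62 in C269S relative to IDH1mt cells. HILPDA, a lipid droplet protein, HK2, a hexokinase, and NDRG1, a stress-response gene, differed in the same 2 comparisons by 2.57 and -2.49, by 1.36 and -1.09 and by 1.26 and -1.21 (edgeR adjusted p at most 6.24e-16 for these 4 genes). In C269S relative to PCDH cells the 4 with the lowest p were ANGPTL4 (0.85), CA9 (-0.43), LOX (-0.39) and HK2 (0.26), with edgeR adjusted p = 6.86e-05, 7.21e-05, 9.22e-05 and 0.00402. HK2 lost its call without PCDH replicate 1. SLC2A1 was also called higher in C269S than in PCDH cells (0.28, edgeR adjusted p = 0.018), a call lost without C269S replicate 3 or PCDH replicate 1.

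**Figure D5:**
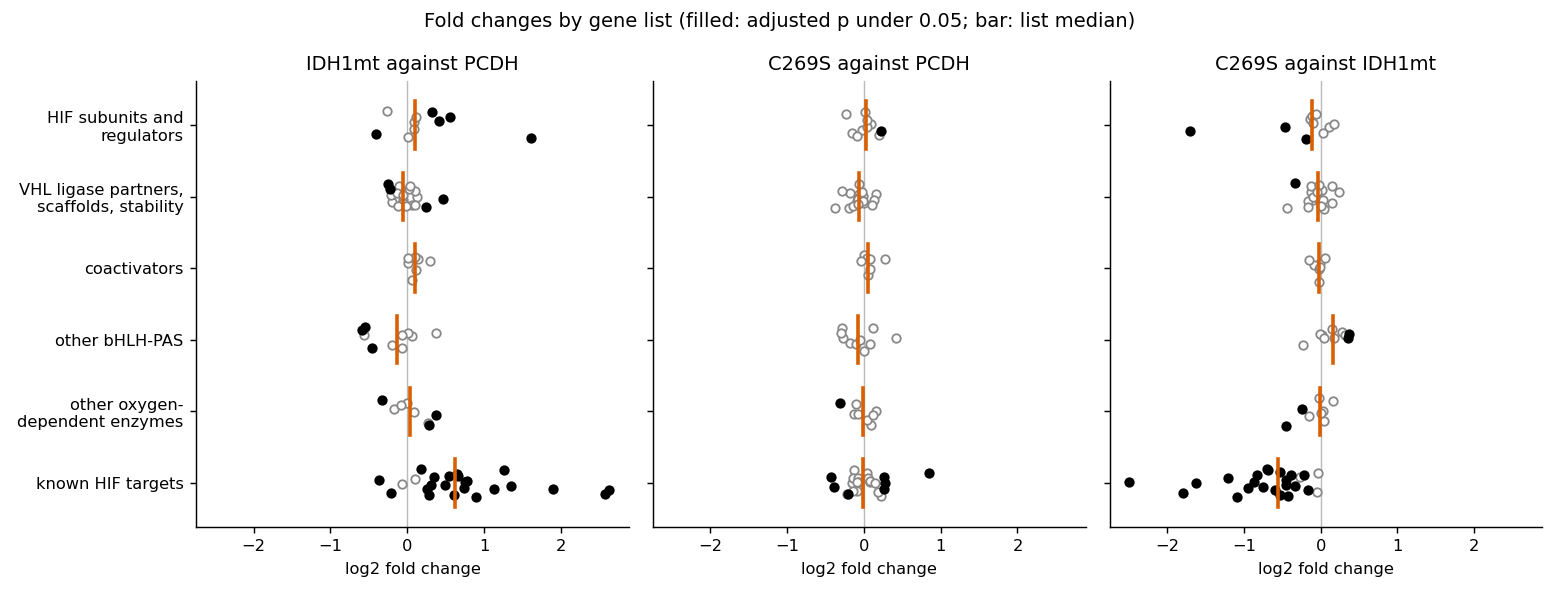
Log2 fold changes of the genes of each list (horizontal axis, 1 point per gene) in the 3 comparisons, with the list median as a bar; filled points passed an adjusted p under 0.05. The known HIF targets lie mostly to the right in IDH1mt against PCDH cells (median 0.63) and to the left in C269S against IDH1mt cells (median -0.56), while the medians of the other lists stay between -0.14 and 0.17.

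The genes most like EGLN3 and EGLN1 across the 9 libraries were found by the root mean square difference of log2 CPM, each gene centred on its own mean. For EGLN3 the nearest 5 protein-coding genes were SLC2A1 (0.23), CES1 (0.25), DDIT4L (0.26), FOXF1 (0.27) and KRT15 (0.28). All 5 had their highest mean in IDH1mt cells, with log2 fold changes of 1.45 to 1.90 relative to PCDH cells. DDIT4L, a relative of the stress gene DDIT4, averaged 16.7 CPM in C269S, 51.1 CPM in IDH1mt and 14.2 CPM in PCDH cells. For EGLN1 they were SLC5A3 (0.06), ZNF292 (0.06), STXBP6 (0.06), BNIP3L (0.08) and SOX9 (0.08), with log2 fold changes of 0.44 to 0.58 relative to PCDH cells. BNIP3L, a mitophagy receptor and known HIF target, averaged 174.8 CPM in C269S, 238.7 CPM in IDH1mt and 169.6 CPM in PCDH cells. SLC2A1 and BNIP3L were also in the list of HIF targets, and likeness over 3 groups of 3 libraries is a description with no test.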

How the data were processed

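Bulk RNA of 9 U87 libraries was sequenced by Novogene, per the labels. HISAT2 2.0.5, featureCounts 1.5.0-p3 and the builds GRCh38 and hg38 are given by the submitters' processing notes. The deposited count values are whole-number reads per gene. The authors also deposited FPKM, which equals the count per length and library total times 1 factor per library. By name, the Control columns were taken as PCDH, mt as IDH1mt and CS as C269S.

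Genes were filtered with filterByExpr, scaled by edgeR's TMM factors and tested with edgeR 4.0.16 (robust quasi-likelihood F test, R 4.3.3, all 9 libraries, 1 mean per group). P-values were adjusted by Benjamini and Hochberg over 16874 genes, with a call at values under 0.05. Per-gene SE is the absolute log2 fold change over the square root of F, and the prior count for log2 CPM was 2. The script was tested on simulated counts. FPKM served for levels between genes and paralog ratios (exact permutation tests). DESeq2 1.42.0, limma 3.58.1, other scalings, filters, a replicate block and leaving out each library were alternatives. The 10 genes and the lists were chosen with earlier results of these data known. Of each other list up to 4 called genes with the lowest p were named per comparison, and the 5 nearest genes of the 2 most changed members.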

Additional observations from a re-analysis of the deposited data

How the results depend on the processing

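Of the 9 member calls made in the 3 comparisons, those of EGLN3, EGLN1, EPAS1, HIF1A and CITED2 in IDH1mt relative to PCDH cells and of EGLN3 and EGLN1 in C269S relative to IDH1mt cells passed in all 19 alternatives. The EPAS1 calls in C269S cells passed in 16 of 19 alternatives relative to PCDH and in 15 of 19 relative to IDH1mt cells. With library size alone the count of members lower in IDH1mt relative to PCDH cells was 2, since ARNT2 then passed (-0.31, edgeR adjusted p = 0.0221), and with a library left out it was 1 to 2. The count higher in C269S relative to PCDH cells was 0 at an adjusted p under 0.01, 2 with no filter on low counts, and 0 to 2 with a library left out. The count lower in C269S relative to IDH1mt cells was 2 to 3 with a library left out. In IDH1mt relative to PCDH cells HIF1AN was at -0.043 with library size alone, -0.0025 with no filter and -0.0388 to 0.0587 with a library left out. In C269S relative to PCDH cells EGLN2 was at -0.0058 with library size alone. With a library left out, the sign in that comparison changed for EGLN2 (-0.0752 to 0.123), ARNT (-0.0751 to 0.0269), VHL (-0.0009 to 0.0835), EGLN1 (-0.0067 to 0.188), EGLN3 (-0.249 to 0.014), HIF1AN (-0.0009 to 0.095) and the log2 ratio of EPAS1 to HIF1A (-0.0447 to 0.108); none of these was called, and the cause was not tested. HIF1A in C269S relative to PCDH cells passed also with no filter (edgeR adjusted p = 0.0358).

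Replicate numbers did not pair the libraries (correlation of same-numbered deviations -0.087 to 0.056). With the replicate block no member call changed, HIF1A in IDH1mt relative to PCDH cells for one being 0.33 (edgeR adjusted p = 0.00102), and calls over all genes were 1987 against 2375 for IDH1mt against PCDH. Over all genes the share of calls that were higher was 35.2% with library size alone against 51% in IDH1mt relative to PCDH cells, 52.9% against 62.3% in C269S relative to PCDH cells, and 60.1% against 46.8% in C269S relative to IDH1mt cells. Leaving out PCDH replicate 3 gave 903 calls for C269S against PCDH where all libraries gave 239, leaving out another library of these 2 groups gave 103 to 251, and limma on FPKM gave 85 to 87. With 102 to 173 counts per library, EGLN2 is the member whose precision depth limits most.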
